A study of Homo sapiens with 12 samples.

Results

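Sprouty and SPRED genes encode inhibitors of RAS signalling, and their transcripts were followed here through Kit activation in HUDEP-2, a human line of immortalised erythroid precursors. The members were the 6 genes SPRY1, SPRY2, SPRY4, SPRED1, SPRED2 and SPRED3, chosen by symbol from the 54628 genes listed. RNA-seq was available from 12 libraries in 4 groups of 3 replicates, sgControl PBS, sgControl SCF, sgEGR1 PBS and sgEGR1 SCF. In all 4 groups the cells were starved for 5 h, and carried a lentiviral CRISPR interference construct in which a KRAB repressor domain is joined to inactive Cas9. The construct held either a scrambled guide (sgControl) or a guide to an element upstream of EGR1 (sgEGR1). Starvation was followed by 1 h with PBS or with 50 ng/mL of stem cell factor (SCF), the ligand of the Kit receptor tyrosine kinase. Every group thus shared the immortalised background, the construct and growth beforehand in medium with SCF, erythropoietin, dexamethasone and doxycycline. The count columns carry a code for the second guide in place of its name, and this code was read as sgEGR1 because it is the only guide besides the scrambled control.

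Kit, once bound by SCF, recruits adaptor proteins that load RAS with GTP, and RAS then starts the RAF, MEK and ERK kinase cascade. Sprouty proteins act downstream of receptor tyrosine kinases and limit the activation of this cascade, and their genes are well known as targets of ERK signalling, which makes them feedback inhibitors. SPRED proteins, which share the cysteine-rich Sprouty domain, bind neurofibromin and bring this RAS GTPase-activating protein to the membrane.

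The sgEGR1 guide and the promoter stretches are printed because they define the EGR1 perturbation and show where EGR motif letters stood near the Sprouty genes. The guide is given 5′ to 3′ as designed.
sgEGR1: ggatgacagcgatagaaccc
This sequence had 1 exact match in the main chromosomes of hg38, at chr5:138464830-138464849 on the plus strand, followed by the PAM CGG. GENCODE release 44 annotates no gene there, and the site lies from 649 to 630 bases before the annotated start of EGR1.

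RefSeq promoter windows on GRCh38, which run from 250 bases before to 50 bases after a start site, were matched by symbol for all 6 members and gave 11 windows. The EGR consensus GCGGGGGCG stood in 2 of them, 1 of SPRY1 and 1 of SPRY2, against 5.06% of all 34943 windows. It is shown in capitals on the strand of each gene, so that in SPRY2 it reads as its reverse complement.
SPRY1, chr4:123398347-123398376, plus strand: ggccggtggcgGCGGGGGCGggggaggccg
SPRY2, chr13:80341127-80341226, minus strand: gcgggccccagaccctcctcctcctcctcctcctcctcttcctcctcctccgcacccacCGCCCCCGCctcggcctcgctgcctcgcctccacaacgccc
In SPRY1 the match ran from 28 to 20 bases before the start site of that window and lay inside an exon of another SPRY1 transcript in GENCODE. In SPRY2 the match ran from 41 to 33 bases before the start site and lay in no annotated gene.

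Other motifs were searched on both strands in the same windows. The second EGR motif, GCGTGGG, stood in 0 member windows, against 6.98% of all windows. The AP-1 motif TGANTCA, which is its own reverse complement, stood in 2 member windows, 1 of SPRED2 and 1 of SPRED3, against 7.72% of all windows. The ETS motif CCGGAAG stood in 1 window, that of SPRY1 with the EGR consensus, against 10.2% of all windows. The CArG box stood in 0 member windows, against 1.3% of all. The windows of SPRY4 and SPRED1 held none of these letters. These matches describe the letters of the windows, and no binding was measured in these libraries.

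Library totals ranged from 23.5 to 32.04 megacounts. Levels are in CPM, counts per megacount of the TMM-scaled total, and a floor of 3 counts corresponded to 0.0937 to 0.128 CPM. All 13 erythroid markers passed the filter on low counts, with a summed level of 21429 to 24861 CPM per library, while lymphoid markers summed to at most 0.691 CPM. The megakaryocyte list summed to 12.9 to 35.6 CPM, with PF4, PPBP, GP9 and VWF at 0 in every library. The myeloid list summed to 7.73 to 15.7 CPM, nearly all of it SPI1 (7.57 to 15.1 CPM), with MPO, ELANE, CD33 and ITGAM at 0. The fibroblast or epithelial list summed to 298 to 331 CPM with COL1A2 at 0 and COL1A1 and KRT8 below 1 CPM, so that EPCAM and CDH1 made up nearly all of it. EGR1, the targeted gene, was at 2.04, 1.12 and 0.977 CPM in sgEGR1 PBS against 10.9, 5.99 and 7.45 CPM in sgControl PBS. After SCF, EGR1 reached 208, 239 and 171 CPM in sgControl cells and 40.4, 57.4 and 204 CPM in sgEGR1 cells. For the targeted gene, the library labelled sgEGR1 SCF replicate 3 was inside the sgControl SCF range and goes against its label, so values are also given without it. The replicate 1 libraries stood apart from the others. Within a group, the chi-square of counts per degree of freedom was 12.02 to 21.02 between replicate 1 and another replicate and 4.47 to 9.05 between replicates 2 and 3. Values from replicates 2 and 3 alone are given where they matter.

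Per exon length, SPRED2 was the most abundant member and SPRY1 came next. SPRED2, on chromosome 2 (65310851 to 65432637, minus strand), had a level of 2.97 ± 0.211 CPM per kb of exon (SD, n = 3) in sgControl PBS. SPRY1, on chromosome 4 (123396795 to 123403760, plus strand), had a level of 1.0 ± 0.09 CPM per kb in the same group, and the ranges of SPRED2 and SPRY1 did not overlap in any group. SPRY2, on chromosome 13 (80335976 to 80341126, minus strand), had 0.393 ± 0.0691 CPM per kb in sgControl PBS. SPRED1, on chromosome 15 (38252836 to 38357249, plus strand), had 0.36 ± 0.0569 CPM per kb, and its range overlapped that of SPRY2 in all 4 groups.

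SPRY4 and SPRED3 were the lowest. SPRY4, on chromosome 5 (142310427 to 142326455, minus strand), had a level of 0.0573 ± 0.0504 CPM per kb in sgControl PBS, and SPRED3, on chromosome 19 (38388421 to 38399587, plus strand), had 0.0588 ± 0.0154 CPM per kb. Their ranges overlapped after PBS in both cell populations. After SCF they did not, with SPRY4 at 0.142 to 0.258 against 0.0322 to 0.0693 CPM per kb for SPRED3 in sgControl cells. Positions and exon lengths come from GENCODE release 44 on hg38, which may not be the release the authors used. In this annotation SPRY4 overlaps 3 genes on the opposite strand and SPRED2 overlaps 1 on its own strand, sharing 0 exon bases with each.

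The summed level of the 6 members was 4.83 ± 0.16 CPM per kb (SD, n = 3) in sgControl PBS and 7.83 ± 2.09 in sgControl SCF. In sgEGR1 cells the sums were 5.18 ± 0.318 after PBS and 7.03 ± 0.593 after SCF. SPRED2 supplied 61.3 ± 2.36% of the sum in sgControl PBS and 52.3 ± 3.67% in sgControl SCF, and its share in every sgControl SCF library was below that in every sgControl PBS library. In sgEGR1 cells its share was 62.3 ± 4.38% after PBS and 50.9 ± 4.34% after SCF, again with no overlap. The mean level of SPRED2 itself was not lower after SCF. It was 2.97 after PBS and 4.14 after SCF in sgControl cells, and 3.22 and 3.59 in sgEGR1 cells (CPM per kb). A share of a sum falls when the other members rise more. The lack of overlap in the share has no counterpart over all genes and is not read as particular to SPRED2. SPRY2 supplied 8.16 ± 1.67% after PBS and 12.7 ± 2.04% after SCF in sgControl cells. The bar plot of levels per exon length shows this order of the members.

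**Figure D1:**
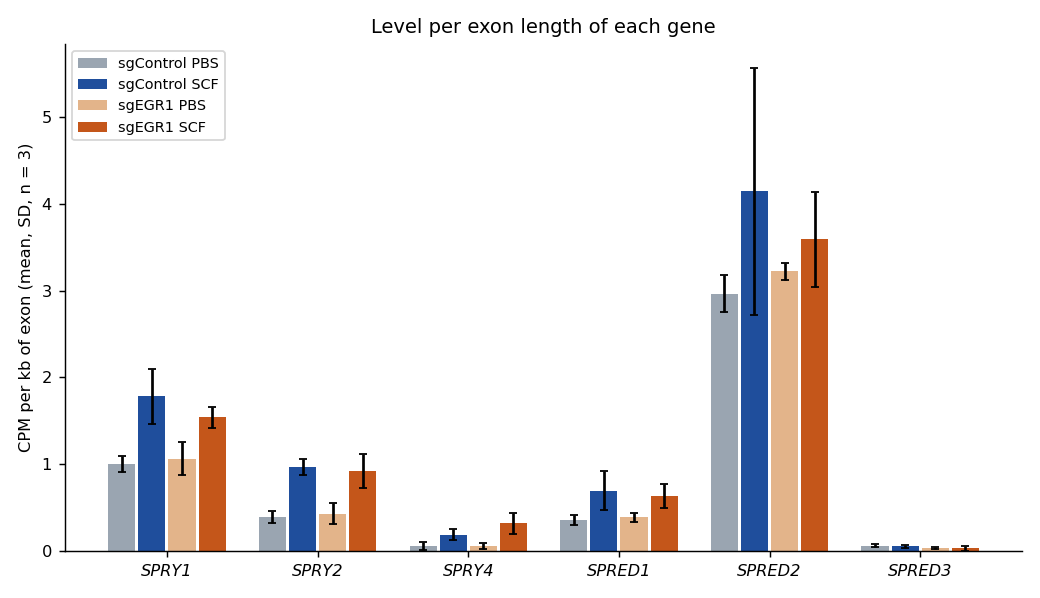
Bars give the mean level of each gene in CPM per kb of exon (y axis) for the 4 groups, and error bars the SD over 3 libraries. SPRED2 was highest in every group, at 2.97 ± 0.211 CPM per kb in sgControl PBS, and SPRY4 and SPRED3 were lowest.

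The first question was which members respond to 1 h of SCF. SPRY1, SPRY2, SPRY4 and SPRED1 rose in the average SCF response over both cell populations, by 1.61 to 4.33-fold, and SPRED2 did not pass the test in the fit reported here. SPRED3 was too low for the filter on low counts and was not tested with the other 5. For SPRY1, SPRY2, SPRY4 and SPRED1, all 6 SCF libraries were above all 6 PBS libraries in CPM, a pattern found in 4.43% of the 15492 genes tested. In the same average response, 5.58% of genes tested were called higher at a Benjamini-Hochberg adjusted p under 0.05 in the quasi-likelihood test of edgeR. The median log2 fold change of the 5 tested members was 0.84, and that of all genes tested was close to 0. The groups are bulk cultures, in which a change in RNA per cell and a change in the mix of cells cannot be told apart.

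**Figure D2:**
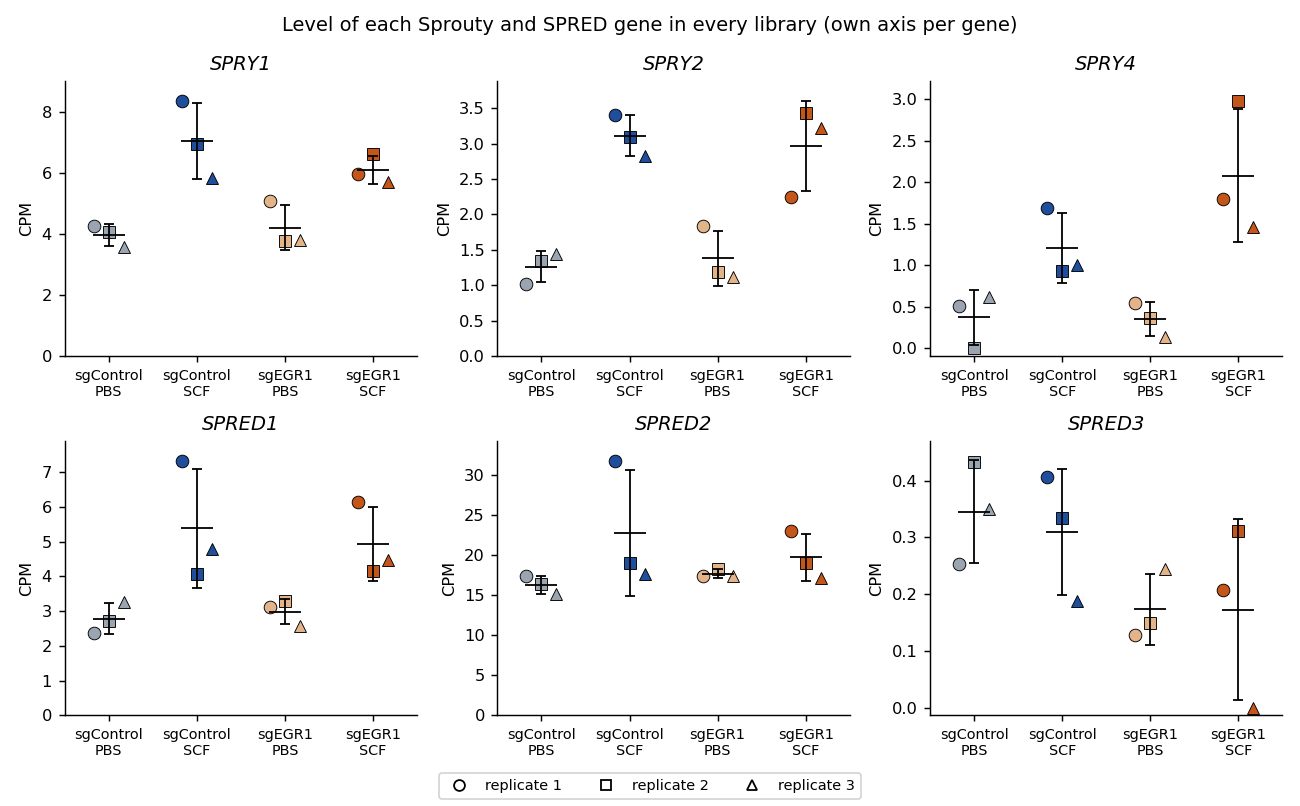
Each panel plots the level of 1 gene in CPM (y axis, own scale) in the 4 groups, with a symbol per replicate, the mean as a bar and the SD as whiskers (n = 3). The SCF libraries lie above the PBS libraries for SPRY1, SPRY2, SPRY4 and SPRED1, while SPRED3 is at most 0.433 CPM in all 12.

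SPRY2, a Sprouty protein that binds the ubiquitin ligase CBL, had the most secure response. In sgControl cells its level was 1.01, 1.34 and 1.44 CPM after PBS and 3.41, 3.1 and 2.83 CPM after SCF. In sgEGR1 cells it was 1.83, 1.19 and 1.12 CPM after PBS and 2.24, 3.43 and 3.22 CPM after SCF. The groups did not overlap in either cell population, and the smallest step was between the replicate 1 libraries of sgEGR1 cells.

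The log2 fold change of SPRY2 was 1.30 ± 0.24 (SE) in sgControl cells and 1.11 ± 0.24 in sgEGR1 cells, with edgeR adjusted p of 0.0127 and 0.0279. SPRY2 was the only member called in both. Averaged over both it was 1.21 ± 0.17, a 2.31-fold rise (95% interval 1.79 to 2.98, edgeR adjusted p = 0.000886). Only 0.852% of genes tested had a higher log2 fold change in this average. Its call in sgEGR1 cells was lost without sgEGR1 PBS replicate 2, PBS replicate 3, SCF replicate 2 or the library labelled sgEGR1 SCF replicate 3, with edgeR adjusted p of 0.125, 0.129, 0.111 and 0.101. The call was kept in sgControl cells without each of the 12 libraries in turn.

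SPRY1, the most abundant Sprouty gene per exon length in these cells, was at 4.26, 4.06 and 3.57 CPM in sgControl PBS and at 8.35, 6.97 and 5.85 CPM in sgControl SCF. In sgEGR1 cells it was at 5.07, 3.76 and 3.8 CPM after PBS and at 5.97, 6.62 and 5.71 CPM after SCF. SCF libraries were above PBS libraries in both cell populations, with a narrower gap in sgEGR1 cells.

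The log2 fold change of SPRY1 was 0.83 ± 0.16 in sgControl cells, where it was called (edgeR adjusted p = 0.0175), and 0.54 ± 0.16 in sgEGR1 cells, where it was not (edgeR adjusted p = 0.118). The average was 0.68 ± 0.11, a 1.61-fold rise (95% interval 1.35 to 1.91, edgeR adjusted p = 0.00296). The call in sgControl cells was lost when replicate 2 or 3 of sgControl PBS, or replicate 1 or 2 of sgControl SCF, was left out, with edgeR adjusted p of 0.0633, 0.0883, 0.0656 and 0.0522. With replicates 2 and 3 alone SPRY1 was called in both, with a log2 change of 0.75 in sgControl cells and 0.70 in sgEGR1 cells (edgeR adjusted p of 0.0272 and 0.0334).

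SPRY4, a Sprouty gene with few counts here, had 14, 0 and 16 counts in sgControl PBS and 54, 28 and 32 counts in sgControl SCF. In sgEGR1 cells it had 13, 10 and 4 counts after PBS and 52, 86 and 47 counts after SCF. Every SCF library exceeded every PBS library, and the count of 0 in sgControl PBS replicate 2 stood beside counts of 14 and 16 in the other two.

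In CPM, SPRY4 averaged 0.375 ± 0.33 after PBS and 1.21 ± 0.417 after SCF in sgControl cells (SD, n = 3), and 0.355 ± 0.208 and 2.08 ± 0.797 in sgEGR1 cells. Its log2 fold changes, 1.67 ± 0.68 in sgControl cells and 2.56 ± 0.68 in sgEGR1 cells, were the highest of the members but also the least precise, and neither was called (edgeR adjusted p of 0.273 and 0.0742). The average was called at 2.12 ± 0.48, or 4.33-fold (95% interval 2.11 to 9.08, edgeR adjusted p = 0.0163). In sgEGR1 cells SPRY4 was called without the sgControl PBS replicate 2 library that had 0 counts (edgeR adjusted p = 0.0148). Without that library its log2 fold change in sgControl cells was 1.10 in place of 1.67 (edgeR adjusted p = 0.405).

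SPRED1, the SPRED member whose loss causes Legius syndrome, was at 2.38, 2.72 and 3.26 CPM in sgControl PBS and at 7.32, 4.07 and 4.78 CPM in sgControl SCF. In sgEGR1 cells it was at 3.11, 3.28 and 2.58 CPM after PBS and at 6.14, 4.16 and 4.47 CPM after SCF. The groups did not overlap, and the replicate 1 library was the highest of the SCF libraries in both cell populations.

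The log2 fold change of SPRED1 was 0.95 ± 0.23 in sgControl cells and 0.72 ± 0.23 in sgEGR1 cells, and neither was called (edgeR adjusted p of 0.0517 and 0.144). The average was called at 0.84 ± 0.17, or 1.78-fold (95% interval 1.39 to 2.29, edgeR adjusted p = 0.00745). With replicates 2 and 3 alone the average was 0.56 (edgeR adjusted p = 0.0206). In sgControl cells SPRED1 was called without sgControl SCF replicate 2 or without sgEGR1 SCF replicate 1, with edgeR adjusted p of 0.0424 and 0.0444. It was also called there by DESeq2 (adjusted p = 0.00919), in a fit blocked by replicate number (edgeR adjusted p = 0.0183) and with a term for replicate 1 (edgeR adjusted p = 0.0124).

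SPRED2, the most abundant member, was at 17.4, 16.4 and 15.1 CPM in sgControl PBS and at 31.8, 19.0 and 17.6 CPM in sgControl SCF. In sgEGR1 cells it was at 17.4, 18.3 and 17.5 CPM after PBS and at 23.02, 19.1 and 17.2 CPM after SCF. Groups overlapped in sgEGR1 cells, and in sgControl cells the lowest SCF library was barely above the highest PBS library.

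SPRED2 had a log2 fold change of 0.48 ± 0.19 in sgControl cells and 0.16 ± 0.19 in sgEGR1 cells (edgeR adjusted p of 0.248 and 0.791). The average was 0.32 ± 0.13, with a 95% interval of 1.02 to 1.53-fold and an edgeR adjusted p of 0.172. It was called in a fit blocked by replicate number (edgeR adjusted p = 0.0494), which called 18.1% of genes tested, and with a term for replicate 1 (edgeR adjusted p = 0.0439). With replicates 2 and 3 alone the average was 0.12 (edgeR adjusted p = 0.267). In a single term pooled over the groups, SPRED2 was also higher in replicate 1 than in the other replicates, by 0.33 on the log2 scale (edgeR adjusted p = 0.0235). This did not hold in every group. In sgEGR1 PBS replicate 1 was the lowest, at 17.37 CPM against 18.33 and 17.48 CPM, and the widest gaps were in the SCF groups. The share of all genes called in this comparison was not counted, so the call is not read as particular to SPRED2.

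SPRED3, the SPRED protein whose Kit-binding domain is known to be non-functional, was close to the floor. It had 7, 11 and 9 counts in sgControl PBS, 13, 10 and 6 in sgControl SCF, 3, 4 and 7 in sgEGR1 PBS and 6, 9 and 0 in sgEGR1 SCF. SCF and PBS libraries overlapped in both cell populations. In CPM, SPRED3 was at 0.253 to 0.433 in sgControl PBS and at 0.128 to 0.244 in sgEGR1 PBS. The share of all genes whose PBS groups separate in this way was not counted. The log2 difference between guides was -0.95 with a 95% interval from -2.69 to 0.75. It was not called (edgeR adjusted p = 0.934, fit without the filter on low counts). In a fit without the filter on low counts the log2 fold change after SCF was -0.14 in sgControl cells and -0.03 in sgEGR1 cells, with 95% intervals from -1.76 to 1.48 and from -1.83 to 1.77. A change of SPRED3 after SCF was not detectable at this depth.

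Over the separate cell populations, 2 of the 5 tested members, SPRY1 and SPRY2, were called higher in sgControl cells, against 2.12% of genes tested. In sgEGR1 cells 1 of 5, SPRY2, was called, against 1.81% of genes tested. Every SCF library was above every PBS library for all 5 tested members in sgControl cells, a pattern held by 10.4% of genes tested. In sgEGR1 cells this was so for 4 of 5, SPRED2 being the exception, against 11.2% of genes tested. All 5 members had a positive log2 fold change in both, as did 48.2% and 49.8% of all genes. The interval plot of the SCF response shows these values.

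**Figure D3:**
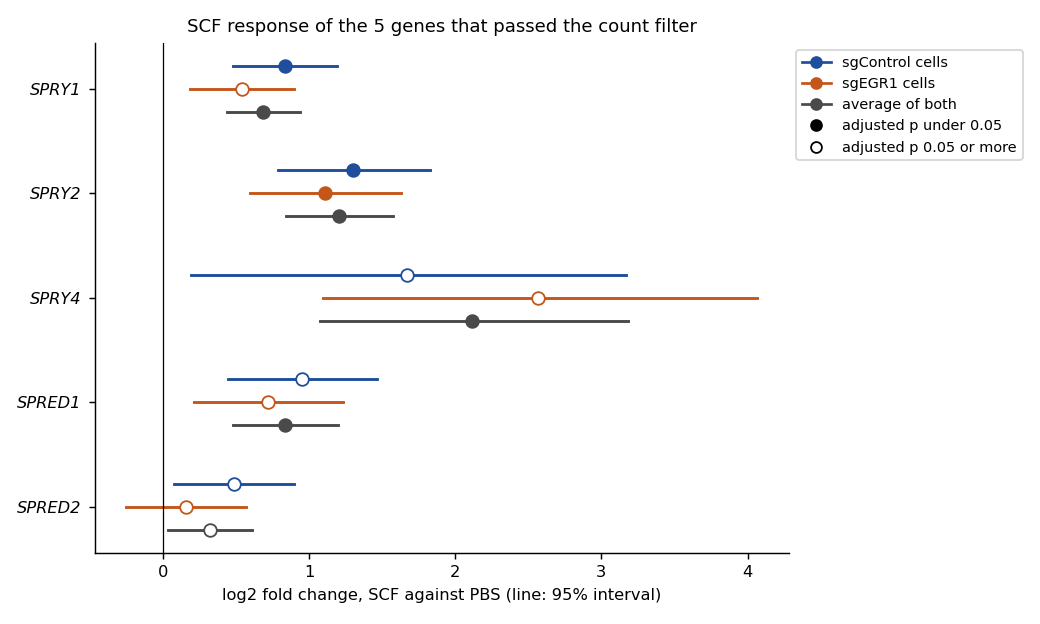
Points give the log2 fold change of SCF against PBS (x axis) for 5 genes in sgControl cells, sgEGR1 cells and their average, with 95% intervals as lines, and filled points mark an adjusted p under 0.05. SPRY2 is filled in all 3 and SPRED2 in none.

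When the library labelled sgEGR1 SCF replicate 3 was left out, the same 4 members were called in the average response, SPRY1 at a log2 fold change of 0.71, SPRY2 at 1.18, SPRY4 at 2.22 and SPRED1 at 0.87 (edgeR adjusted p of 0.0063, 0.00323, 0.0248 and 0.0145). In sgEGR1 cells 0 members were then called, at log2 fold changes of 0.59 for SPRY1, 1.05 for SPRY2, 2.77 for SPRY4, 0.79 for SPRED1 and 0.25 for SPRED2. In that fit all 5 had an adjusted p of at least 0.101, and for SPRY1, SPRY2, SPRY4 and SPRED1 the unadjusted edgeR p was 0.00847, 0.00242, 0.00331 and 0.0123. Removing the library lowered the SPRY2 response slightly and raised those of the other 4.

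Ratios of SCF to PBS set libraries with the same replicate number side by side. Whether the numbers pair PBS with SCF libraries was not settled. In sgControl cells the replicate 1 ratio was the highest for SPRY1 (1.96), SPRY2 (3.37), SPRY4 (3.34), SPRED1 (3.07) and SPRED2 (1.82), where SPRY4 had no ratio in replicate 2, while SPRED2 reached only 1.16 and 1.17 in replicates 2 and 3. In sgEGR1 cells the replicate 1 ratio was the lowest for SPRY1 (1.18), SPRY2 (1.23) and SPRY4 (3.24), and the highest for SPRED1 (1.98) and SPRED2 (1.32). SPRY2 had a ratio of 2.88 in replicates 2 and 3 of sgEGR1 cells. These ratios are a description with no test.

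**Figure D4:**
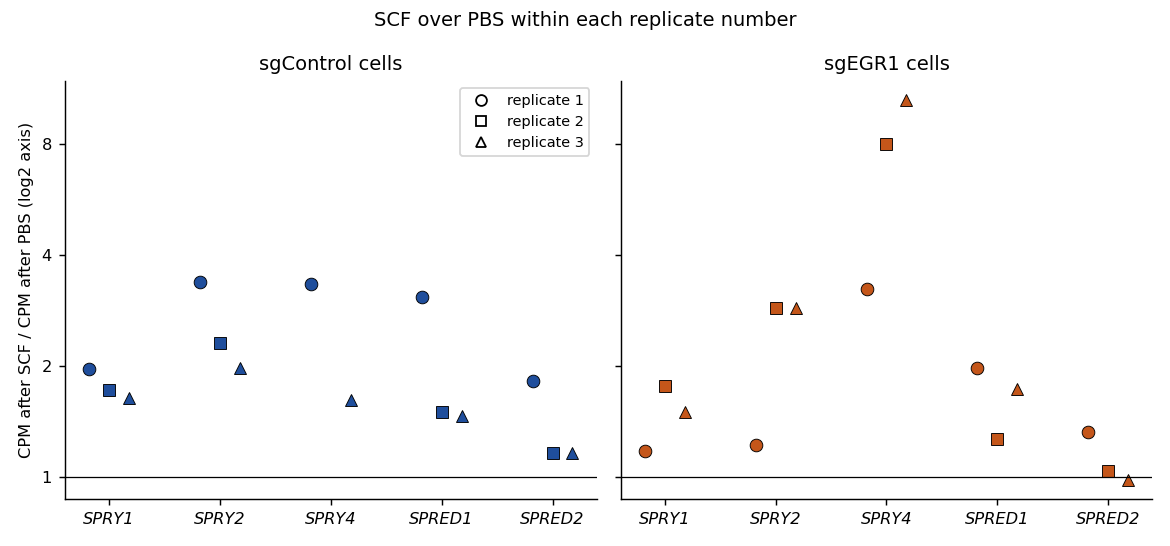
Symbols give the ratio of CPM after SCF to CPM after PBS within a replicate number (y axis, log2 scale) for 5 genes in sgControl cells (left) and sgEGR1 cells (right). Replicate 2 of SPRY4 in sgControl cells is not drawn because its PBS library had 0 counts, and the lowest ratio is 0.982 for SPRED2 in replicate 3 of sgEGR1 cells.

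The second question was whether the EGR1 guide changed the members. It did not pass the test for any of them, with or without SCF. The targeted gene EGR1 was not called either, at log2 differences of -2.59 after PBS and -1.03 after SCF (unadjusted edgeR p of 0.00721 and 0.0406). The lack of a call for a member thus does not show that the guide left it unchanged. Without the library labelled sgEGR1 SCF replicate 3, EGR1 averaged 48.9 CPM in sgEGR1 SCF, against 206 CPM in sgControl SCF. After PBS, sgEGR1 minus sgControl differences on the log2 scale were 0.08 for SPRY1, 0.12 for SPRY2, -0.12 for SPRY4, 0.10 for SPRED1 and 0.12 for SPRED2. In this comparison edgeR called 0% of genes tested (0 of 15492), with 715 at an unadjusted p under 0.05, and DESeq2 called 20. The 95% intervals were 0.825 to 1.36-fold for SPRY1, 0.748 to 1.59-fold for SPRY2 and 0.747 to 1.54-fold for SPRED1. For SPRED2 the interval was 0.815 to 1.45-fold, and for SPRY4, with its few counts, 0.282 to 3.0-fold.

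After SCF the differences were -0.21 for SPRY1, -0.07 for SPRY2, 0.78 for SPRY4, -0.13 for SPRED1 and -0.21 for SPRED2, with unadjusted edgeR p of 0.211, 0.759, 0.211, 0.572 and 0.283. Again 0% of genes tested were called by edgeR, with 361 at an unadjusted p under 0.05, and DESeq2 called 5. SPRY4 averaged 1.21 CPM in sgControl SCF and 2.08 CPM in sgEGR1 SCF, and its groups overlapped (0.933 to 1.69 against 1.47 to 2.98 CPM). With the library labelled sgEGR1 SCF replicate 3 left out, the differences were -0.17 for SPRY1, -0.14 for SPRY2, 0.97 for SPRY4, -0.07 for SPRED1 and -0.12 for SPRED2, with unadjusted edgeR p from 0.17 to 0.798.

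The SCF response itself was compared between the guides by the interaction, in which the sgControl response is subtracted from the sgEGR1 response. It was -0.29 ± 0.23 for SPRY1, -0.19 ± 0.33 for SPRY2, 0.90 ± 0.98 for SPRY4, -0.23 ± 0.33 for SPRED1 and -0.33 ± 0.27 for SPRED2 (log2, SE). For SPRY4 it was 1.47 without sgControl PBS replicate 2, the library with 0 counts, and ranged from 0.36 to 1.47 as each library was left out. None was called, and unadjusted edgeR p ranged from 0.224 to 0.574. The interaction was called for 0% of genes tested by edgeR, with 306 at an unadjusted p under 0.05, and for 4 by DESeq2. The 95% intervals of the ratio of responses ran from 0.577 to 1.15 for SPRY1, 0.528 to 1.45 for SPRY2, 0.425 to 8.19 for SPRY4, 0.518 to 1.4 for SPRED1 and 0.533 to 1.19 for SPRED2. Each interval includes an equal response in the 2 cell populations. It also includes a response in sgEGR1 cells that is weaker down to its lower bound or stronger up to its upper bound. With the library labelled sgEGR1 SCF replicate 3 left out, the interaction was -0.25 for SPRY1, -0.25 for SPRY2, 1.10 for SPRY4, -0.16 for SPRED1 and -0.23 for SPRED2. The responses in the 2 cell populations and the differences between guides share libraries and are given side by side for this reason.

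**Figure D5:**
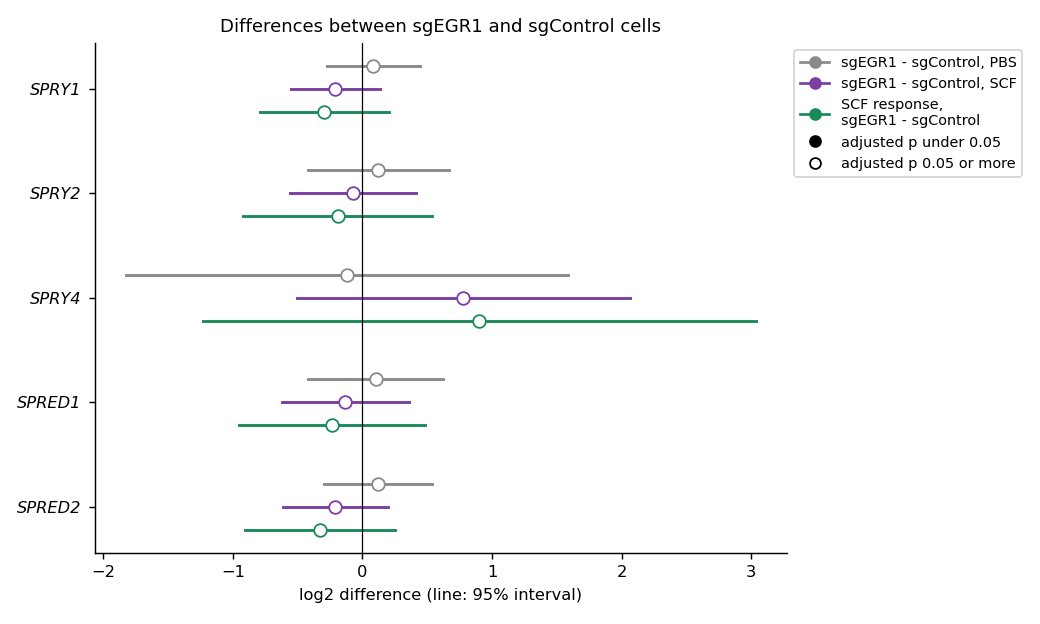
Points give log2 differences between sgEGR1 and sgControl cells (x axis) after PBS, after SCF and for the SCF response, with 95% intervals as lines. All points are open, marking adjusted p of 0.05 or more, and every interval includes 0.

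The rest of the pathway was described from 4 lists. In the average SCF response 1399 of all 15492 genes tested were called in either direction, 865 of them (5.58% of those tested) higher. A call of 1 gene in a list is therefore not read as a result about that list. In the Kit to ERK cascade, 21 of 22 genes were tested, and in the average SCF response 0 were called higher and 1 lower by edgeR, while DESeq2 called 4 in all. The gene that edgeR called was SOS2, an exchange factor that loads RAS with GTP, at a log2 fold change of -0.15 ± 0.04 (edgeR adjusted p = 0.0394). The call of SOS2 was lost without the filter on low counts (edgeR adjusted p = 0.102) and in 10 of the 12 fits that leave out 1 library, and was kept without sgControl PBS replicate 2 or sgControl SCF replicate 1. KIT itself averaged 497 ± 31.1 CPM in sgControl PBS and 493 ± 10.1 CPM in sgControl SCF (SD, n = 3). Among partners and regulators of Sprouty and SPRED proteins 15 of 17 were tested, and 1 was called higher in the average response and 0 lower. This was PPP2CA, the catalytic subunit of the phosphatase PP2A, at 0.13 ± 0.03 (edgeR adjusted p = 0.00698). NF1, which encodes neurofibromin, the SPRED partner, was at 68.1 ± 7.26 CPM in sgControl PBS and 65.8 ± 1.05 CPM in sgControl SCF and was not called (edgeR adjusted p = 0.206 in the average response).

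Of the other RAS GTPase-activating proteins all 8 were tested, and 1 was called higher and 0 lower in the average response. This was RASA2 at a log2 fold change of 0.23 ± 0.06 (edgeR adjusted p = 0.037). The call of RASA2 was lost without the filter on low counts (edgeR adjusted p = 0.0623) and in 9 of the 12 fits that leave out 1 library, and was kept without sgControl PBS replicate 1, sgEGR1 PBS replicate 1 or the library labelled sgEGR1 SCF replicate 3. Other inhibitors of receptor to ERK signalling included 8 tested genes of 10, and 3 were called higher and 0 lower in the average response and in each cell population. They were the ERK phosphatase genes DUSP6, DUSP7 and DUSP5. DUSP6 averaged 2.87 ± 0.419 CPM in sgControl PBS and 15.1 ± 2.69 CPM in sgControl SCF, and 2.99 ± 0.397 and 16.2 ± 2.96 CPM in sgEGR1 cells. Its average log2 fold change was 2.42 ± 0.13 (edgeR adjusted p = 1.22e-06). As a point estimate this was above every Sprouty and SPRED member, but SPRY4 was at 2.12 ± 0.48 and the difference was not tested. In sgControl cells SPRY4 was lower than DUSP6, at 1.67 ± 0.68 against 2.39 ± 0.19. In sgEGR1 cells SPRY4 was higher, at 2.56 ± 0.68 against 2.44 ± 0.19. DUSP7 changed by 0.69 ± 0.07 (edgeR adjusted p = 7.86e-05). DUSP5, at an average of 1.18 CPM, lay under the 2 CPM asked of named genes and is given because it completes the 3, with a change of 1.80 ± 0.22 (edgeR adjusted p = 0.000306). In sgControl cells the call of DUSP5 was lost when any of the 6 sgControl libraries or sgEGR1 SCF replicate 2 was left out (edgeR adjusted p up to 0.126), and in a fit to the compared groups alone (0.0509). The median log2 fold change in the average response was 0.15 in this list and 0.01 or nearer to 0 in the other 3 lists. Between guides and in the interaction edgeR and DESeq2 called 0 genes of the 4 lists, with 6, 0 and 0 of the 52 tested at an unadjusted edgeR p under 0.05 after PBS, after SCF and in the interaction.

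Genes whose log2 CPM followed a member over the 12 libraries were ranked by Pearson correlation among 11175 genes with at least 2 CPM, for members at that level. These values describe libraries that fall into PBS and SCF groups and share the replicate numbers. SPRY1 was closest to CSRNP1 (r = 0.97), C11orf24 (0.952) and ZCCHC2 (0.949). SPRY2 was closest to JUNB (0.963), ING2 (0.961) and SNHG17 (0.959). SPRED1 was closest to PAXIP1 (0.944), NFYA (0.935) and WDR47 (0.932), and SPRED2 to C19orf47 (0.936), SH2B3 (0.909) and LOC107985803 (0.909). The leading genes of the 4 members were all different.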

How the data were processed

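Estimated counts per gene, made by the authors with StringTie from HISAT alignments to hg38, were deposited as 1 column for each of 12 libraries and not scaled for depth or length. All values were whole, so rounding left them unchanged. The annotation release and the use of strand in counting were not stated, and 2 library kits are named, 1 in the labels and another in the methods. Overlapping genes and close paralogs thus have uncertain counts. Groups came from the labels, which number 3 replicates per group but name no shared culture or day. The study's methods call the replicates biological and do not say whether they were separate cultures or transductions. p-values measure the spread between these samples, which may in part be technical.

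The filterByExpr function of edgeR 4.0.16 (R 4.3.3) kept 15492 of 54628 genes, among them 5 of the 6 members. The quasi-likelihood F test was fitted with 1 coefficient per group over all 12 libraries and TMM scaling, with Benjamini-Hochberg adjustment over all genes tested and a call at an adjusted p under 0.05. Tests were two-sided, and log2 fold changes carry the prior count of edgeR. The code was tested on simulated counts. The share of a library in tested genes was at least 99.9%. Intervals and the floor of 3 counts cover counting error or spread between libraries only, since reads were not counted as molecules.

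The members, the 4 pathway lists and the marker lists were chosen with earlier results of these data known. Named genes were the 6 members, EGR1, up to 3 called genes per direction and list with at least 2 CPM, and for members of at least 2 CPM the 3 genes with the highest correlation. Same-numbered libraries were correlated as deviations from group means. The correlations were 0.102 to 0.269 between guides under the same treatment and 0.00766 to 0.272 between treatments. These ranges overlap, and libraries with different numbers were not correlated as a reference. Whether replicate numbers pair the guides or the treatments was therefore not settled. Alternatives were DESeq2 1.42.0, relative log expression size factors, no filter on low counts, a replicate block, a term for replicate 1, replicates 2 and 3 alone, a fit to the compared groups alone, and leaving out each library. The sgEGR1 guide sequence comes from the study's supplementary table, promoter windows from RefSeq on GRCh38 and positions from GENCODE release 44.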

Additional observations from a re-analysis of the deposited data

How the results depend on the processing

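In the average SCF response the same 4 members were called under DESeq2, other size factors, no filter, replicates 2 and 3 alone and without any 1 library, and SPRED2 joined them with a replicate block (edgeR adjusted p = 0.0494) and with a term for replicate 1 (0.0439). The block called 2799 of 15492 genes (18.1%) in this response, against 1399 in the fit reported, and with the block and the library labelled sgEGR1 SCF replicate 3 left out SPRED2 was not called (0.0827). The replicate block raised the members called from 1 to 3 in sgEGR1 cells (SPRY1, SPRY2 and SPRY4) and from 2 to 3 in sgControl cells, while genes called rose to 7.97% and 7.64% of those tested. With the replicate block, and the library labelled sgEGR1 SCF replicate 3 left out, the count was 0 in sgEGR1 cells. It was 4 with a term for replicate 1 and 2 with replicates 2 and 3 alone. A fit to the compared groups alone called 1 member in sgControl cells, SPRY2, and 1 in sgEGR1 cells, SPRY4. Leaving out each library gave 1 to 3 members in sgControl cells and 0 to 2 in sgEGR1 cells. Among these alternatives the share of all genes called is given only for the block with all 12 libraries. The other counts are thus not read as results about the members. The replicate block changed no member's call between guides or in the interaction. Causes were not tested.

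Pathway list genes called in sgEGR1 cells were 6 with the replicate block, 7 with the replicate 1 term and 5 with replicates 2 and 3 alone, against 3 in the fit reported and 4 with DESeq2. In the average response these counts were 13, 14 and 11 against 6, while genes called overall rose as given above for the block, and 11 with the block and that library left out together. They were 9 with DESeq2, 4 with no filter and 4 to 7 as each library was left out. That last fit called 5 in sgControl cells, 1 between guides after PBS and 1 after SCF. Under the block the share of all genes called rose as well, and for the other fits that share is not given. These counts are therefore not read as results about the lists.

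Signs changed only in guide differences and interactions that no test called. With replicates 2 and 3 alone, differences after PBS became -0.015 (SPRY1), -0.27 (SPRY2) and -0.035 (SPRED1), SPRY2 after SCF became 0.16 and its interaction 0.43. Leaving out 1 library gave ranges that crossed 0. After PBS they were -0.070 to 0.154 (SPRY1), -0.129 to 0.256 (SPRY2) and -0.688 to 0.417 (SPRY4). After SCF they were -0.190 to 0.0956 (SPRY2), -0.320 to 0.149 (SPRED1) and -0.363 to 0.104 (SPRED2), and for the interaction -0.327 to 0.0558 (SPRY2) and -0.420 to 0.0523 (SPRED1). DESeq2 gave no adjusted p for SPRY4 in either cell population. SPRY4 and SPRED3 were limited by their few counts.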
